A study of Mus musculus with 6 samples.

Results

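The Ly49 receptors are a family of C-type lectin-like proteins on the surface of mouse natural killer (NK) cells, encoded by the Klra genes. Their levels were examined in NK cells sorted from the thymus of 2 mice with a Tcf7 knock-out (KO) and 4 wild-type (WT) mice. The members were the 10 Klra genes Klra1 to Klra9 and Klra17, matched by Entrez gene ID, out of 26332 genes in the count table. All 10 had a row, and all 10 passed the filter on low counts that left 13652 genes for testing. KO 1 was male and KO 2 female; WT 1 and WT 3 were male, and WT 2 and WT 4 female. All 6 mice were on a C57BL/6 background, and each gave a single library. Neither the knock-out allele nor the age of the mice is stated in the labels. The sorted cells were positive for NK1.1 and NKp46 and did not stain for TCRbeta, for CD3 or CD8, or with a CD1d tetramer.

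Ly49 receptors bind class I molecules of the major histocompatibility complex (MHC), or viral proteins that resemble them. Inhibitory members carry a tyrosine-based motif in their cytoplasmic tail that recruits the phosphatases SHP-1 and SHP-2 and restrains killing. Activating members lack that motif and signal through the adaptor DAP12. Each NK cell switches on only some of the genes of the cluster, so that a population holds cells with many combinations of receptors. Tcf7 encodes TCF-1, a transcription factor known to be needed in mice for the normal frequency of NK cells with Ly49A, the product of Klra1. In C57BL/6 mice Klra4 (Ly49D) and Klra8 (Ly49H) are the activating members. Klra1 (Ly49A), Klra2 (Ly49B), Klra3 (Ly49C), Klra5 (Ly49E), Klra6 (Ly49F), Klra7 (Ly49G), Klra9 (Ly49I) and Klra17 (Ly49Q) are inhibitory.

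The genes lie on mm10 chromosome 6, on the minus strand, between 129831154 (Klra17) and 131247716 (Klra2). Klra5 spans chr6:129898988-129913237, Klra6 chr6:130013033-130026960, Klra4 chr6:130043730-130067301, Klra8 chr6:130115226-130129898, Klra9 chr6:130178626-130194374, Klra7 chr6:130218605-130233322, Klra3 chr6:130323289-130337626 and Klra1 chr6:130363918-130386874. They are close copies, which bears both on how their reads can be assigned and on how alike their promoters are. Sequence upstream of the start was taken from the RefSeq promoter table of GRCm38.p6, the same assembly as mm10, in which all 10 members were found. The start is the one that table uses. For Klra2, Klra4, Klra5, Klra6 and Klra9 it lies inside the gene's own span, so bases before it can lie within the gene. Klra7 and Klra8 each have a further start in that table, which also lies inside the gene's span. The 250 bases before the start of Klra4, Klra5 and Klra6 are shown because Klra4 and Klra6 had the lowest KO levels relative to WT among the members, while Klra5 was the one member that rose. The capitals mark the 6 bases that stand at the same place in a stretch shared by most members.
Klra4 (GRCm38.p6, chr6:130067272-130067521, minus strand): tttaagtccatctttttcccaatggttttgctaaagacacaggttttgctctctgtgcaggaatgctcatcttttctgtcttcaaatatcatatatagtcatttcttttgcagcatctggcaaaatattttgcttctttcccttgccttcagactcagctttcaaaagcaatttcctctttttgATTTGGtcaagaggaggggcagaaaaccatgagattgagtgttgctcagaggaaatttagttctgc
Klra6 (GRCm38.p6, chr6:130026955-130027204, minus strand): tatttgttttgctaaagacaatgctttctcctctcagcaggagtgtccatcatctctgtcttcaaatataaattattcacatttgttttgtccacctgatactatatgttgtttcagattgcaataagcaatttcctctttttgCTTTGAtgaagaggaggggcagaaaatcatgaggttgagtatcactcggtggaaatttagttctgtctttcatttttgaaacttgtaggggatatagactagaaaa
Klra5 (GRCm38.p6, chr6:129913225-129913474, minus strand): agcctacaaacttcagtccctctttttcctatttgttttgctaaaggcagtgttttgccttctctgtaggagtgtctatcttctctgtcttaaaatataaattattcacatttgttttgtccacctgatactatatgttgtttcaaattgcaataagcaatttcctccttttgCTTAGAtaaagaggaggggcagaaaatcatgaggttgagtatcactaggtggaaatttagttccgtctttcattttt
The whole promoter windows of Klra5 and Klra6, which moved in opposite directions, were identical at 90.8% of 271 aligned bases. Those of Klra3, Klra6 and Klra9, which all fell, were more alike. Klra3 and Klra9 matched at 96.4% of 281 bases, Klra3 and Klra6 at 93.0% of 200, and Klra6 and Klra9 at 92.6% of 217. A link between promoter likeness and fold change was not tested.

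The shared stretch, 36 bases long, was found in 9 of the 10 members, Klra1 being the exception in the window that RefSeq gives it. It is shown for each of them, in the order of the gene's fold change from the lowest to the highest, since the bases in capitals include matches to the core of the motif that TCF and LEF factors bind.
Klra4 (chr6:130067317-130067352, minus strand): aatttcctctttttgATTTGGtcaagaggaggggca
Klra6 (chr6:130027040-130027075, minus strand): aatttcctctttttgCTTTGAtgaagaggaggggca
Klra8 (chr6:130129945-130129980, minus strand): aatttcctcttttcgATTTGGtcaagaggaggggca
Klra3 (chr6:130337612-130337647, minus strand): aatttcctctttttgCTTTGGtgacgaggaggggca
Klra9 (chr6:130193117-130193152, minus strand): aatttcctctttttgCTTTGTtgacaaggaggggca
Klra17 (chr6:129876713-129876748, minus strand): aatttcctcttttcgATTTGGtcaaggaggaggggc
Klra7 (chr6:130233378-130233413, minus strand): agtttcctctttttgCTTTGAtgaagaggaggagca
Klra2 (chr6:131247400-131247435, minus strand): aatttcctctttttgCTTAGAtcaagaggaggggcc
Klra5 (chr6:129913281-129913316, minus strand): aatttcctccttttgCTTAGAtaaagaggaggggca
The core was searched as CTTTGA and CTTTGT on both strands over the window from 250 bases before to 50 bases after the start. The capitals read CTTTGA in Klra6 and Klra7 and CTTTGT in Klra9. Of the 12 windows of the members 4 (33.3%) held a match, against 31.2% of 32851 promoter windows of all genes. The window at the further start of Klra7, inside the gene, is among the 4. A match of these letters is a description and not a measured binding site.

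Library totals lay between 16418910 and 31155303 counts, so 3 counts in a library corresponded to 0.0989 to 0.180 CPM (counts scaled to the size of the library). CPM are given here after scaling by the trimmed mean of M-values (TMM), and means are given ± SD over the 2 KO or 4 WT libraries. Tcf7 itself, the check of the labels, had 268 CPM in KO 1 and 452 CPM in KO 2, against 811 to 947 CPM in WT. The summed level of 8 NK markers, Ncr1 and Klrb1c among them, was 7267 CPM in KO 1 and 5755 CPM in KO 2, against 8220 to 8921 CPM in WT. Of these 2, Klrb1c and Eomes, were called lower, none had a positive log2 fold change and the median was -0.33. Markers of other cells were also counted, and none of the listed markers that were in the table was at 0 in every library. The sum of 10 alpha-beta T markers was 1153 and 1131 CPM in KO 1 and KO 2, against 269 to 545 CPM in WT, with 3 of 10 called higher and 1 lower. The sum of the 5 gamma-delta T markers in the table was 478 and 340 CPM, against 142 to 237 CPM in WT, with 4 called higher. B cell markers summed to 208 and 57.3 CPM, against 9.89 to 22.3 CPM in WT, with 6 of 8 called higher. Stroma markers summed to 274 and 475 CPM, against 111 to 120 CPM in WT, with 3 of 5 tested called higher. Pecam1 alone made up most of that sum, with 245 and 402 CPM in KO 1 and KO 2, against 103 to 113 CPM in WT. Pdgfrb and Epcam were the other stroma markers called. Plasmacytoid dendritic markers (629 and 701 CPM in KO 1 and KO 2, 499 to 737 CPM in WT) and myeloid markers (1002 and 880 CPM, against 947 to 1008 CPM in WT) overlapped between the groups as sums. Of the plasmacytoid dendritic markers 2 were called higher and 2 lower. Of 10 myeloid markers tested 2, C1qa and C1qb, were called higher, 9 had a positive log2 fold change and the median was 2.82, while Itgax alone made up most of the sum. The part of other cells in the Ly49 values was not tested. In such bulk samples fewer cells with a receptor and less transcript per cell cannot be told apart.

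Most of the Ly49 family was lower in the KO libraries, and a single member was higher. At an adjusted p under 0.05 in edgeR's quasi-likelihood test, 6 of 10 members were lower, where 5.58% of all genes tested were. Klra5 alone was called higher, where 8.13% of all genes were. In either direction 7 of 10 members were called, against 13.7% of all genes. Klra2, Klra7 and Klra17 were not called. The median log2 fold change of the 10 members was -1.34, against 0.02 over all genes. For 6 members both KO libraries lay below all 4 WT libraries, an arrangement found for 18.8% of genes, and for 1 member both lay above them, as for 20.5% of genes. The 2 activating members were both called lower, with a median log2 fold change of -3.20. Of the 8 inhibitory members 4 were called lower, 1 higher and 3 not, with a median of -1.05. Klra2 and Klra17, among those 3, had only 2 to 84 counts per library. The classes overlapped: inhibitory Klra6 (-2.94) and Klra1 (-2.70) fell more than activating Klra8 (-2.09), though less than activating Klra4 (-4.32).

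**Figure D1:**
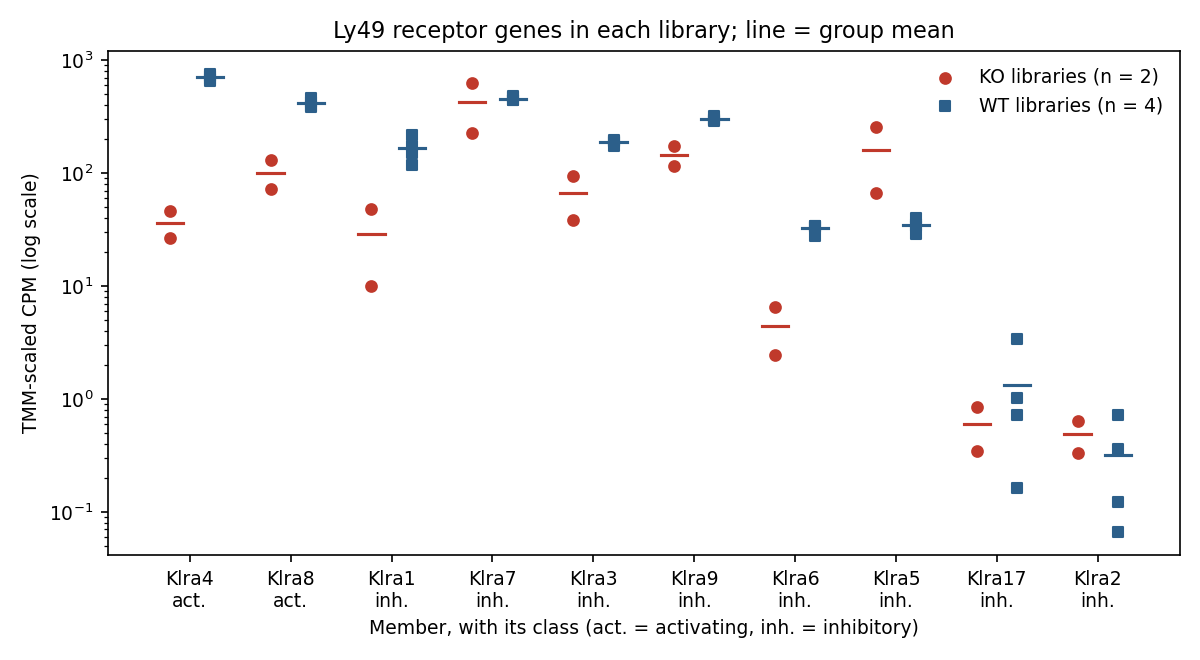
TMM-scaled CPM (log axis) of the 10 Ly49 genes in each KO library (circles, n = 2) and each WT library (squares, n = 4), with a line at each group mean. Klra4 stands at 45.8 and 26.6 CPM in KO against 657 to 759 CPM in WT, Klra5 is the one member with both KO libraries above WT, and the KO libraries straddle WT for Klra7.

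Both activating receptors fell. Klra4 encodes Ly49D, which recognises the class I molecule H-2Dd of other mouse strains and signals through DAP12. It had 45.8 CPM in KO 1 and 26.6 CPM in KO 2, against 657, 679, 728 and 759 CPM in WT 1 to WT 4. The groups did not overlap, and the highest KO value was far below the lowest WT value. The means were 36.2 ± 13.6 CPM in KO and 706 ± 46.2 CPM in WT, so KO held 5.13% of the WT level (log2 fold change -4.32, SE 0.23, adjusted p = 1.35e-04). Among all genes of the table ranked by mean CPM, Klra4 stood at place 5705 in KO and 156 in WT.

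Klra8 encodes Ly49H, the receptor through which C57BL/6 NK cells recognise a protein of mouse cytomegalovirus. It had 130 CPM in KO 1 and 72.5 CPM in KO 2, against 382, 395, 463 and 430 CPM in WT 1 to WT 4. Again no KO library reached the WT range. KO held 24.2% of the WT mean (log2 fold change -2.09, SE 0.20, adjusted p = 1.14e-03). Of the 75-base windows of the Klra8 transcripts 80.3% occurred in no other Klra transcript, the lowest share among the members, and 16.03% were shared with the pseudogene Klra14-ps. With the counts of Klra8 and Klra14-ps summed, the log2 fold change was -1.95 (adjusted p = 1.74e-03), a sum tried after the data had been seen.

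Among the inhibitory members, those with a fall included receptors for the class I molecules that C57BL/6 cells carry and receptors for those of other strains. Klra1 encodes Ly49A, an inhibitory receptor for H-2Dd and H-2Dk. It had 47.8 CPM in KO 1 and 9.95 CPM in KO 2, against 174, 218, 119 and 151 CPM in WT 1 to WT 4. All KO values were below all WT values, with the widest spread, as a ratio of highest to lowest library, of the called members within both groups. The log2 fold change was -2.70 (SE 0.59, adjusted p = 0.0252). With KO 2 left out it was -1.62, and with KO 1 left out it was -4.22. The call was lost when WT 1 was left out (adjusted p = 0.0695) and under edgeR's robust option (adjusted p = 0.149), the range over all alternatives being 2.77e-04 to 0.149.

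Klra3 and Klra9 encode Ly49C and Ly49I, inhibitory receptors that bind H-2Kb, a class I molecule of C57BL/6 mice. Klra3 had 94.8 CPM in KO 1 and 38.2 CPM in KO 2, against 189, 175, 191 and 196 CPM in WT 1 to WT 4. Klra9 had 172 CPM in KO 1 and 115 CPM in KO 2, against 321, 300, 294 and 290 CPM in WT 1 to WT 4. Neither gene had a KO library within the WT range, and the WT libraries were close to each other. KO held 35.4% of the WT mean of Klra3 (log2 fold change -1.59, SE 0.28, adjusted p = 0.0104). For Klra9 it held 47.8% (log2 fold change -1.09, SE 0.14, adjusted p = 3.29e-03), the smallest fall of the called members. Their coding sequences are identical at 95.9% of 798 bases, and both are closer still to Klra10, a further Klra gene of the cluster, at 96.2% for Klra3 and 96.9% for Klra9. The split of reads among these copies is therefore uncertain. Of the 75-base windows 93.6% for Klra3 and 87.9% for Klra9 occurred in no other Klra transcript. With Klra3, Klra9 and Klra10 summed, the log2 fold change was -1.27 (adjusted p = 3.83e-03), a sum tried after the data had been seen.

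Klra6 encodes Ly49F, an inhibitory member of low level. It had 6.49 CPM in KO 1 and 2.45 CPM in KO 2, against 33.6, 34.0, 27.7 and 34.0 CPM in WT 1 to WT 4. The groups were well apart, with WT 3 the lowest WT library. KO held 13.8% of the WT mean (log2 fold change -2.94, SE 0.36, adjusted p = 2.80e-03). None of its 75-base windows occurred in another Klra transcript.

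Klra5 moved against the rest of the family. It encodes Ly49E, an inhibitory member that is known in mice as the Ly49 receptor of fetal NK cells, whereas most adult NK cells of the spleen lack it. It had 254 CPM in KO 1 and 66.2 CPM in KO 2, against 33.7, 39.9, 35.7 and 29.0 CPM in WT 1 to WT 4. Both KO libraries were above every WT library, KO 1 by far more than KO 2. The means were 160 ± 133 CPM in KO and 34.6 ± 4.54 CPM in WT (log2 fold change 2.01, SE 0.38, adjusted p = 0.0147). With KO 2 left out it was 2.86, and with KO 1 left out it was 0.93. The call was lost when WT 1 (adjusted p = 0.0638) or WT 3 (adjusted p = 0.0687) was left out and under the robust option (adjusted p = 0.0748), the range over all alternatives being 9.42e-05 to 0.0748. In 1 alternative, tried after the data had been seen, Klra5 was summed with Klra3, Klra6, Klra8, Klra9 and Klra10, and that row fell (log2 fold change -1.12, adjusted p = 0.0204). Every 75-base window of the Klra5 transcripts was absent from the other Klra transcripts, although its coding sequence matches that of Klra6, which fell, at 91.9% of 798 bases. The summed T cell, B cell and stroma markers given above, the stroma sum being mostly Pecam1, also stood above WT in both KO libraries. Their part in the Klra5 level was not tested.

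Klra7 encodes Ly49G, an inhibitory receptor for H-2Dd. It had 621 CPM in KO 1 and 224 CPM in KO 2, against 479, 439, 467 and 443 CPM in WT 1 to WT 4. KO 1 lay above the whole WT range and KO 2 below it, while the WT libraries differed little. The log2 fold change was -0.24 (SE 0.27, adjusted p = 0.610), so no direction is given. With KO 2 left out it was 0.39 (adjusted p = 0.0922), and with KO 1 left out it was -0.98, which was called (adjusted p = 5.79e-03). Over all alternatives the adjusted p ranged up to 0.856. Of its 75-base windows 5.71% were shared with the pseudogene Klra13-ps. With both rows summed the log2 fold change was -0.53 (adjusted p = 0.236), a sum tried after the data had been seen.

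Klra17 and Klra2 had low counts, Klra2 close to the limit of detection throughout and Klra17 in some libraries. Klra17 encodes Ly49Q, known mainly from plasmacytoid dendritic cells, and Klra2 encodes Ly49B, known mainly from myeloid cells. Klra17 had 6 and 23 counts in KO 1 and KO 2 (0.348 and 0.854 CPM), against 4, 22, 17 and 84 counts in WT 1 to WT 4 (0.162, 0.725, 1.02 and 3.39 CPM). WT 4 stood above the rest. Siglech, a defining plasmacytoid dendritic marker, was also highest in WT 4, with 2.14 and 6.80 CPM in KO 1 and KO 2, against 0, 0.198, 2.52 and 24.1 CPM in WT 1 to WT 4. Other markers of the list had another order, with Ccr9, Ly6d, Pacsin1 and Bst2 highest in KO 2, Tcf4 and Cox6a2 highest in WT 3 and Irf8 highest in WT 4. Klra17 was not called (adjusted p = 0.560), its log2 fold change being -1.01 with an SE of 1.03. This was 0.59 when both WT 3 and WT 4 were left out, which was tried after the data had been seen. Klra2 had 11 and 9 counts in KO 1 and KO 2, against 3, 2, 12 and 9 counts in WT 1 to WT 4, and its groups overlapped (log2 fold change 0.64, SE 1.14, adjusted p = 0.758). Lyz2, a defining myeloid marker, had 36.4 and 70.3 CPM in KO 1 and KO 2, against 0.0405 to 14.7 CPM in WT. Lyz2 was not called (log2 fold change 3.40, SE 1.19, adjusted p = 0.105). No difference was detectable for Klra2 or Klra17 at this depth.

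Neighbouring genes along the chromosome could have opposite fold changes. Klra5, Klra6 and Klra4 are neighbours in the cluster and had log2 fold changes of 2.01, -2.94 and -4.32. Beyond Klra4, the values rose through Klra8 (-2.09), Klra14-ps (-1.66), Klra9 (-1.09) and Klra7 (-0.24, not called). The next gene, Klra10, was at -2.33. A link between position and fold change was not tested. The table also held 3 Klra genes outside the member list, which lie among the members and fell with most of them. Klra14-ps, next to Klra8, had 70.7 CPM in KO 1 and 34.6 CPM in KO 2, against 143 to 181 CPM in WT (log2 fold change -1.66, adjusted p = 6.53e-03). Klra13-ps had 36.8 CPM in KO 1 and 11.9 CPM in KO 2, against 119 to 170 CPM in WT (log2 fold change -2.63, adjusted p = 3.36e-03). Klra10, which encodes Ly49J, had 2.84 CPM in KO 1 and 1.75 CPM in KO 2, against 8.37 to 15.4 CPM in WT (log2 fold change -2.33, adjusted p = 5.23e-03). None of these copies had a KO library within the WT range.

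**Figure D2:**
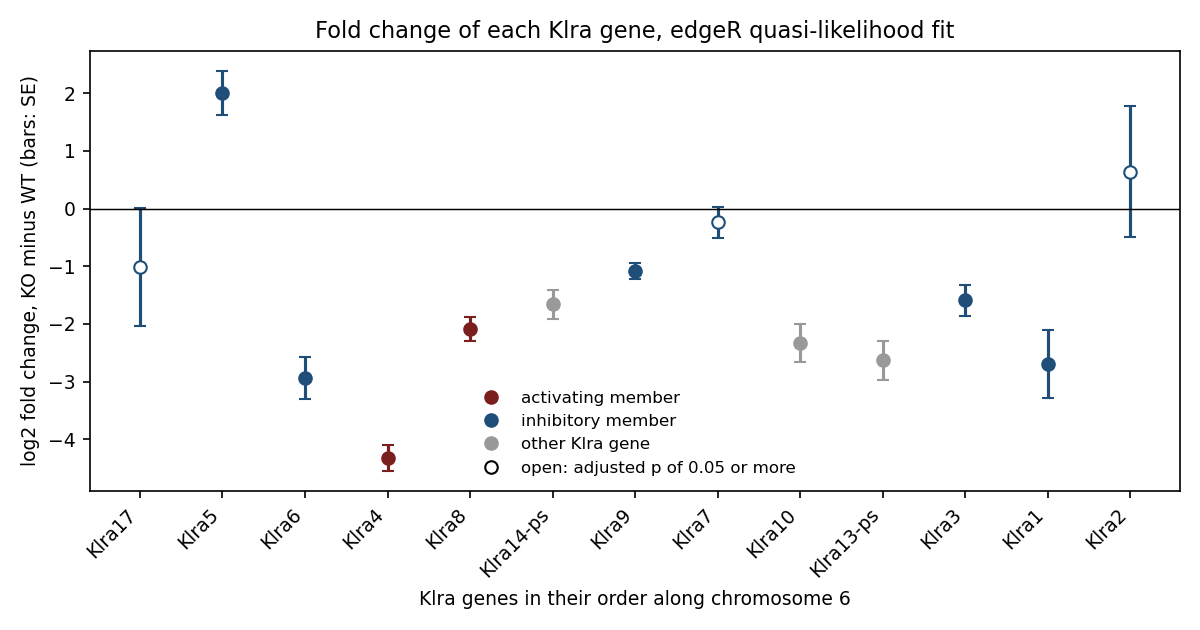
Log2 fold change (KO minus WT, bars show the SE of the edgeR fit) of all 13 Klra genes of the table, in their order along chromosome 6. Klra5 stands at 2.01 beside Klra6 at -2.94 and Klra4 at -4.32, and open circles mark the 3 members that were not called.

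Per kilobase of gene length, the order of the members differed between the genotypes. In KO, Klra7 came first with 342 ± 227 CPM per kb, followed by Klra5 (138 ± 115), Klra9 (121 ± 33.8), Klra8 (85.8 ± 34.4), Klra3 (51.5, from 73.4 in KO 1 and 29.5 in KO 2), Klra4 (37.3 ± 14.0), Klra1 (17.3 ± 16.1) and Klra6 (4.01 ± 2.56). In WT, Klra4 came first with 727 ± 47.6 CPM per kb, followed by Klra7 (369 ± 15.3), Klra8 (354 ± 30.7), Klra9 (252 ± 11.5), Klra3 (145 ± 6.90), Klra1 (99.3 ± 24.9), Klra5 (30.0 ± 3.93) and Klra6 (29.0 ± 2.77). Klra17 and Klra2 came last in both. Klra4 was thus in place 1 in every WT library and in place 6 in both KO libraries. The WT neighbours Klra7 and Klra8, and Klra5 and Klra6, did not differ beyond their spread and changed places between libraries. In KO the spread was wide, and Klra5 was in place 2 in KO 1 and in place 4 in KO 2.

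The activating receptors made up a smaller share of the family in both KO libraries than in any WT library. Klra4 and Klra8 together made up 13.9% of the members' CPM per kb in KO 1 and 19.2% in KO 2, against 50.9%, 52.5%, 55.9% and 56.0% in WT 1 to WT 4. The larger part of this difference lay in Klra4, with 4.17% and 5.93% in KO 1 and KO 2, against 34.4% to 38.2% in WT. Klra8 made up 9.73% and 13.3%, against 16.5% to 19.2% in WT. Klra7, whose own level was not called, made up 44.3% and 39.2% in KO 1 and KO 2, against 17.5% to 19.7% in WT. Klra5 made up 19.4% and 12.4%, against 1.23% to 1.75% in WT. No KO share lay within the WT range for these genes. The totals behind the shares differed between the KO libraries. Summed over the 10 members, the level was 1132 CPM per kb in KO 1 and 463 CPM per kb in KO 2, against 1966 to 2048 CPM per kb in WT. The inhibitory members alone summed to 974 CPM per kb in KO 1, above the WT range of 900 to 965, and to 374 CPM per kb in KO 2, below it. Without division by length, KO 1 was within the WT range, at 1197 CPM in KO 1 and 458 CPM in KO 2, against 1136 to 1229 CPM in WT. The activating members summed to 157 and 88.9 CPM per kb in KO 1 and KO 2, against 1001 to 1146 in WT.

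**Figure D3:**
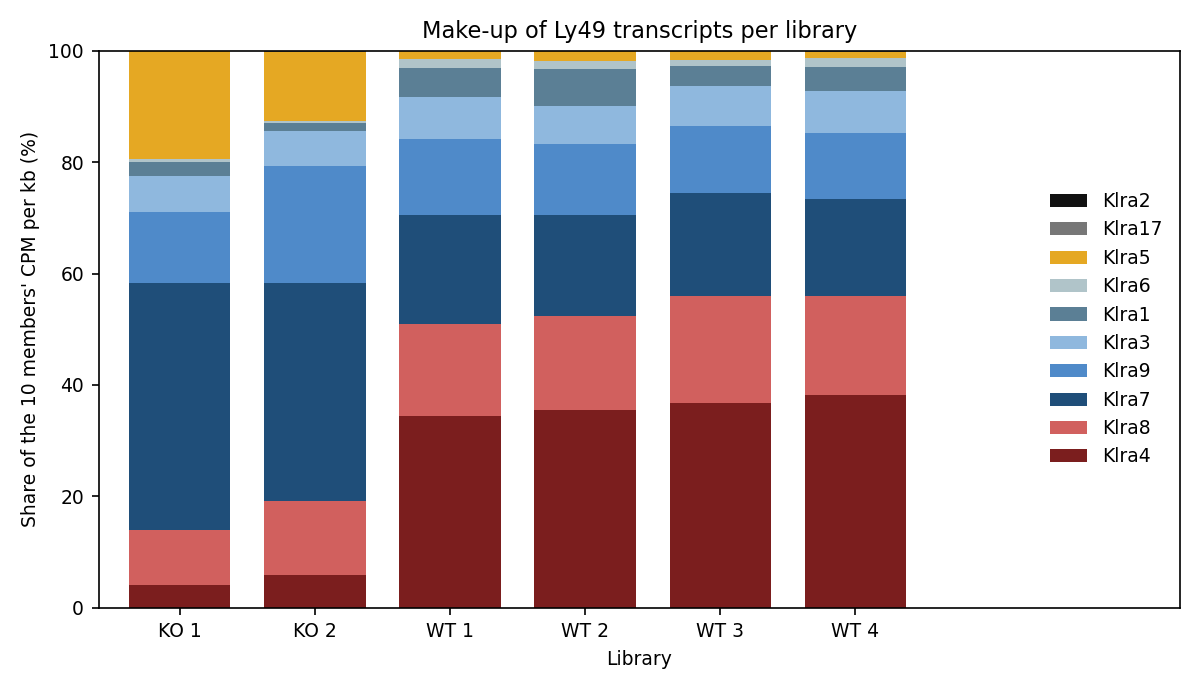
Share of each Ly49 gene in the members' summed CPM per kb (%, stacked to 100) in the 2 KO and 4 WT libraries. Klra4 and Klra8 at the base make up 13.9% and 19.2% in the KO libraries against 50.9% to 56.0% in WT. Klra7 and Klra5 take larger shares in KO, although the level of Klra7 itself was not called.

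The KO libraries differed from each other throughout the family. Of the 10 members 9 were higher in KO 1 than in KO 2, whereas 47.6% of all genes tested were. The listed NK markers were each higher in KO 1 as well, with a sum of 7267 CPM in KO 1 and 5755 CPM in KO 2. The direction of the difference was thus not particular to the family. Its size in the family and in these markers was not compared by a test. The ratio of KO 1 to KO 2 was 4.80 for Klra1, 3.83 for Klra5, 2.77 for Klra7, 2.65 for Klra6, 2.48 for Klra3, 1.79 for Klra8, 1.72 for Klra4 and 1.49 for Klra9, beside a median of 0.985 over all genes. Among the WT libraries the highest level of these 8 members was 1.09 to 1.83 times the lowest. KO 1 is male and KO 2 female, so sex, mouse and library cannot be told apart in this difference. The falls of Klra3, Klra4, Klra6, Klra8 and Klra9 were called whichever KO library was left out. With KO 2 left out, the log2 fold changes were -3.92 for Klra4, -1.71 for Klra8, -1.01 for Klra3, -0.84 for Klra9 and -2.25 for Klra6. With KO 1 left out, they were -4.76, -2.52, -2.29, -1.36 and -3.80 for the same genes in that order. The size of each fall thus depended on the KO library, and its direction did not.

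**Figure D4:**
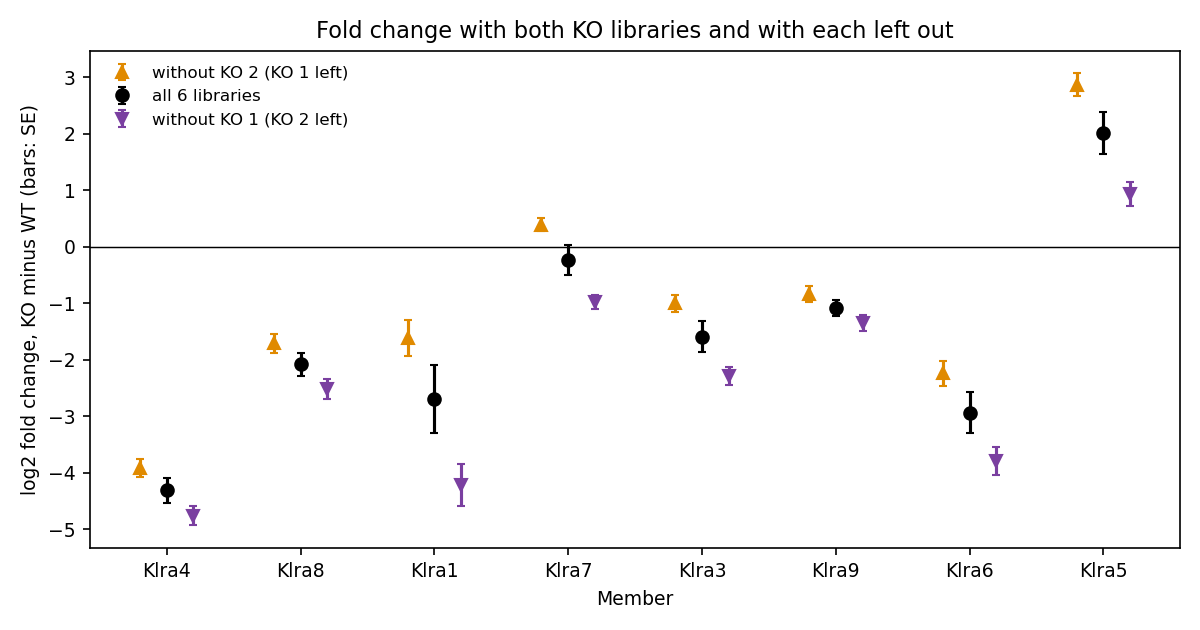
Log2 fold change (KO minus WT, bars show SE) of the 8 members with a mean of at least 4 CPM in both groups. Fits used all 6 libraries (circles), left out KO 2 (upward triangles) or left out KO 1 (downward triangles). Every member is higher where KO 1 is kept than where KO 2 is kept, and Klra7 changes sign (0.39 against -0.98).

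Of 17 genes through which Ly49 receptors signal, 3 were called lower and 2 higher, where 5.58% of all genes were lower and 8.13% higher. Their median log2 fold change was -0.11. Tyrobp, which encodes DAP12, the adaptor of Ly49D and Ly49H, had 398 and 423 CPM in KO 1 and KO 2, against 603 to 718 CPM in WT. KO held 62.7% of the WT mean, without overlap (log2 fold change -0.67, SE 0.10, adjusted p = 6.10e-03). Hcst, the gene of the adaptor DAP10, and Syk, the gene of a kinase that binds DAP12, were also lower, at log2 fold changes of -0.54 (adjusted p = 0.0195) and -0.51 (adjusted p = 0.0360). These genes were named after their values were seen. Hcst lost its call when KO 1, KO 2, WT 1 or WT 3 was left out (adjusted p 0.0643 to 0.112), and Syk when KO 2, WT 1, WT 2 or WT 3 was (adjusted p 0.0598 to 0.222). Hcst also lost it without both WT 3 and WT 4 (0.0660), and Syk with library-size scaling (0.0621) and without the sex term (0.0717).

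Plcg1, the gene of a phospholipase used by T cell receptor signalling, had 41.0 and 44.6 CPM in KO 1 and KO 2, against 6.76, 11.2, 4.92 and 13.3 CPM in WT 1 to WT 4 (log2 fold change 2.34, SE 0.24, adjusted p = 1.40e-03). Lat, the gene of an adaptor that works with it in T cells, had 103 and 105 CPM in KO 1 and KO 2, against 61.4 to 83.4 CPM in WT (log2 fold change 0.55, SE 0.12, adjusted p = 0.0214). Both genes were above all WT libraries in both KO libraries, as were the alpha-beta T marker sums given above, whose part was not tested. Lat lost its call when KO 1, WT 1 or WT 3 was left out (adjusted p 0.0725 to 0.176). The phosphatase genes of the inhibitory pathway were not called: Ptpn6, which encodes SHP-1, had 472 and 386 CPM in KO 1 and KO 2, against 371 to 466 CPM in WT (log2 fold change 0.02, SE 0.12, adjusted p = 0.926).

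Of 11 genes of Ly49 ligands and class I assembly, 3 were called higher and none lower in edgeR, where 8.13% of all genes were higher and 5.58% lower. Their median log2 fold change was 0.10. Nlrc5, which encodes the activator of class I genes, had 372 and 217 CPM in KO 1 and KO 2, against 153 to 219 CPM in WT, so that KO 2 lay within the WT range (log2 fold change 0.70, SE 0.13, adjusted p = 0.0158, but 0.158 without KO 1 and 0.0634 without the sex term). The chaperone gene Pdia3 and the peptide transporter gene Tap1 had log2 fold changes of 0.38 (adjusted p = 0.0179) and 0.36 (adjusted p = 0.0452). Pdia3 lost its call when KO 1, KO 2, WT 1, WT 2 or WT 3 was left out (adjusted p 0.0512 to 0.0954), and Tap1 when any of the 6 libraries was (adjusted p 0.0594 to 0.195). The class I gene H2-K1, which encodes H-2Kb here, had 3261 and 3742 CPM in KO 1 and KO 2, against 3700 to 3814 CPM in WT (log2 fold change -0.10, SE 0.07, adjusted p = 0.376). Class I genes are themselves close copies, so their counts are uncertain.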

How the data were processed

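RNA was measured in sorted thymic NK cells with a low-input full-length cDNA kit, paired-end, per the labels' protocols. The deposited values are raw counts per Entrez gene, not normalized; featureCounts and mm10 were used, per the submitters' processing notes. The aligner is not given in the sources used here. The kit does not mark strand, and its reads carry no molecular identifiers, so counts are not independent molecules. Reads of close copies may be split or dropped. Each sample came from 1 mouse, per the labels.

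The table held 26332 genes, 25275 of them with a RefSeq symbol, 6 sample columns and 0 columns of other samples. The files of the 6 single samples held identical counts. Gene lengths used for CPM per kb are those deposited by the authors in the same table. KO was compared with WT in edgeR 4.0.16 (R 4.3.3) on all 6 libraries: TMM scaling, filterByExpr, glmQLFit and glmQLFTest, with an added term for sex. Benjamini-Hochberg adjustment ran over 13652 genes, with calls at adjusted p under 0.05. Adjusted p without a tool's name are from this fit, which left 3 residual degrees of freedom. P-values measure the spread between these mice only. A log2 fold change is that of KO over WT.

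Coding identity (Biopython 1.88, global alignment) and windows of 75 bases were computed on GENCODE M21 transcripts. The members, the lists and the rule for named genes were chosen with earlier results of these data known. The rule took all members, Tcf7, other Klra genes, up to 3 called genes per pathway list (or the most expressed), and the first markers of each marker list; Ptpn6, H2-K1, Hcst, Syk and further markers were added after their values were seen. The fit was tested on simulated counts. Alternatives were other scalings (RLE, library size, upper quartile), no filter or one of 5 CPM in 2 libraries, a replicate block, a fit without sex, DESeq2 1.42.0, limma 3.58.1 voom, edgeR's robust option and each library left out. Added after seeing the data were leaving out WT 3 and WT 4 together and summing close copies.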

Additional observations from a re-analysis of the deposited data

Results flagged for a closer look

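Klra6 in WT 3 had 27.7 CPM, against 33.6 to 34.0 CPM in the other WT libraries, and its gap to the nearest of them was 0.941 of the range of the group. Of 30 sets of 4 WT values tested in this way (members, other Klra genes, sums and shares) it alone passed Dixon's 95% limit. Chance passes about 1 in 20 sets.

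The KO effect on Klra7 had opposite directions in the sexes. The male KO library lay above both male WT libraries and the female KO library below both female WT libraries. The genotype by sex term was 1.37 on the log2 scale (male minus female KO effect, SE 0.16, edgeR adjusted p = 0.344). No gene of 13652 had an adjusted p under 0.05 for this term, and 1368 had an unadjusted p under 0.05. With 1 KO library per sex, the sex and the mouse cannot be told apart.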

How the results depend on the processing

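Klra3, Klra4, Klra6, Klra8 and Klra9 were called lower under all 19 alternatives (adjusted p at most 0.0288), and Klra1 under 17. Where close copies were summed, the call counted for a gene was that of its summed row, not of the gene by itself. Klra7 was -0.98 without KO 1 and 0.39 without KO 2 on the log2 scale, and Klra1, Klra4 and Klra7 summed gave -1.56. Klra17 was 0.58 with the replicate block and 0.59 without WT 3 and WT 4 together. Summing all rows with coding sequences at least 85% identical puts Klra5 into 1 row with Klra3, Klra6, Klra8, Klra9 and Klra10, which had -1.12. Members called higher then numbered 0, also with the robust option, and 0 to 1 with each library left out.

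Of signalling genes, 5 were called lower by DESeq2. As higher, 4 were called by DESeq2, limma voom, library-size scaling and the filter of 5 CPM, and 1 with the replicate block, where Hcst was not called lower (adjusted p = 0.0690). With each library left out, 1 to 3 were called lower and 1 to 2 higher. Of ligand and assembly genes, 1 was called higher with the replicate block and 1 without WT 3 and WT 4 together, and 0 to 2 with each library left out. The activating share in WT was 48.7% of the counts without division by length. The causes were not tested. The correlation of deviations from the group means was 0.13 for replicate 1 and -0.05 for replicate 2, and the labels do not say that a number marks a shared origin; over all genes the block gave 486 lower and 855 higher calls, against 762 and 1110. Library-size scaling moved the median of all genes to 0.10, and 71.9% of its calls were higher, against 59.3%. The alternative of merging by protein identity was not run, since no protein table was used here. Klra2, at 2 to 12 counts per library, is close to the floor of 3 counts. Klra17, at 4 to 84 counts, is close to it in some libraries only and varied between WT libraries.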
